A study of Homo sapiens with 6 samples.

Results

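Genes of polyamine metabolism were examined in HCT116 cells, and all 10 of them had a probe set among the 14884 genes that could be named on the array. The set was built around SAT1 because its signal was higher in the cells labelled as overexpressing miR-196b. The other 9 genes, SAT2, ODC1, OAZ1, OAZ2, AZIN1, AMD1, SRM, SMS and SMOX, were listed for their roles. Earlier results of these data were known when they were listed. Each of the 10 genes had 1 probe set, so the comparison rests on 10 of 16098 named probe sets. HCT116 is an established human colorectal carcinoma line, which the sample titles spell HTC116. Both groups were stably transduced, the control cells with an empty vector and the other cells with a construct labelled as overexpressing miR-196b, with 3 biological replicates in each group. The labels do not say whether the transduced cells were pooled or grown from 1 clone, nor whether replicates were transduced separately. The p-values therefore cover the spread between these 6 cultures, which may be technical. Total RNA was measured on whole-transcript expression arrays, and all levels below are log2 signals of probe sets.

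Polyamines are small positively charged molecules that bind nucleic acids and are needed for growth, and intestinal epithelium and colorectal tumours are known for their high demand for them. ODC1 makes putrescine from ornithine, AMD1 supplies the aminopropyl donor from S-adenosylmethionine, and SRM and SMS use that donor to build spermidine and then spermine. SAT1 acetylates spermidine and spermine, which marks them for export or oxidation, and SMOX oxidises spermine back to spermidine. Antizymes send the ODC1 protein to the proteasome, and antizyme inhibitors bind the antizymes in its place. Much of this control acts on translation and on protein stability, which an array of RNA does not read.

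The microRNA named by the labels and its closest relative are shown because the labels define the groups by the first, while a precursor of the second had the array signal that separated them. Their mature sequences are given 5′ to 3′ from RefSeq (GRCh38.p14), with the seed, bases 2 to 8, in capitals.
hsa-miR-196b-5p: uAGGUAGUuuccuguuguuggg
hsa-miR-196a-5p: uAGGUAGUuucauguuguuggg
Both share the seed and differ by 1 substitution, C12A, counted from the 5′ end with the miR-196b base first. The first lies at chr7:27169528-27169549 on the minus strand, and the second is encoded at chr12:53991762-53991783 on the plus strand in MIR196A2. MIR196A1 also encodes miR-196a-5p. The precursor probe set of MIR196B was at 8.09, 7.91 and 7.91 in control and at 8.21, 7.93 and 8.01 in the labelled arrays. The groups overlapped, so the gene named by the labels did not check them. The MIR196A2 probe set was at 3.09, 3.21 and 2.88 in control and at 10.61, 10.47 and 10.76 in the labelled arrays. The MIR196A1 probe set was at 4.97, 4.78 and 5.40 in control and at 4.60, 4.86 and 4.88 in the labelled arrays, and its groups overlapped (difference -0.27, interval -0.66 to 0.12). All differences below are given as labelled minus control, and the array gives no level of either mature microRNA.

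The arrays themselves were closely alike. Their medians lay between 4.34 and 4.37, and Pearson correlations over the named probe sets, which are no independent replicates, were 0.994 to 0.995 for arrays of 1 group and 0.992 to 0.994 for arrays of different groups. Of 8 colon epithelial markers 7 had a named probe set, with EPCAM at 10.83 to 11.14 and KRT19 at 9.99 to 10.21 over the 6 arrays. CEACAM5 and VIL1 were among the dimmest 40% of probe sets, as were the fibroblast genes LUM and DCN, the endothelial gene PECAM1 and the macrophage receptor gene CSF1R. The other 2 measured markers of these lists were brighter, with the fibroblast marker THY1 at 4.66 to 5.14 and the macrophage marker CD68 at 7.25 to 7.83, and the groups overlapped for both. LUM and CSF1R lay higher in every labelled array than in any control array (0.18 and 0.31). The summed signal of the epithelial list was 12.6 in each control array and 12.4 in each labelled array (log2), and CDX2 and 1 of the 2 KRT18 probe sets lay lower in every labelled array than in any control array (-0.26 and -0.22). The summed signal of the 3 measured fibroblast markers was 5.22 to 5.49 in control and 5.14 to 5.41 in the labelled arrays. That of the 3 measured blood and endothelial markers was 7.83 to 7.95 in control and 7.52 to 8.01 in the labelled arrays. The part of these marker levels in the results below was not tested.

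SAT1 encodes spermidine/spermine N1-acetyltransferase, the first and rate-limiting step of polyamine breakdown. Its level was 9.85, 9.81 and 9.81 in the 3 control arrays and 10.69, 10.53 and 10.79 in the labelled arrays. Every labelled array lay above every control array, with a gap of 0.68 between the 2 sets of values. The control arrays lay close together (9.82 ± 0.0225, SD, n = 3) and the labelled arrays were more spread (10.7 ± 0.131, SD, n = 3). The difference was 0.85 on the log2 scale with an SE of 0.09 and a 95% interval of 0.64 to 1.05, or 1.80-fold with an interval of 1.56 to 2.07. By size of rise SAT1 stood at place 5 of the 16098 named probe sets. This rise is what chose the set, so these values describe it and test nothing. In these bulk samples, more SAT1 RNA per cell and more cells that carry it cannot be told apart.

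One of the 10 members was past the threshold of the limma fit over all named probe sets (adjusted p below 0.05), and it was SAT1 (adjusted p = 0.0452). In the same fit 9 of 16098 named probe sets, 0.0559%, passed, and nothing is read from the members' count because the choice used this contrast. Leaving out any 1 of the arrays ended the SAT1 call, with a limma adjusted p of 0.111 to 0.279, while its difference stayed between 0.79 and 0.92. It also ended when named and unnamed probe sets were tested together (0.182), with a repeated quantile normalization (0.0568) and with the replicate number as a block (0.291). Over all alternatives tried, its adjusted p ranged from 1.88e-05 to 0.291.

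**Figure D1:**
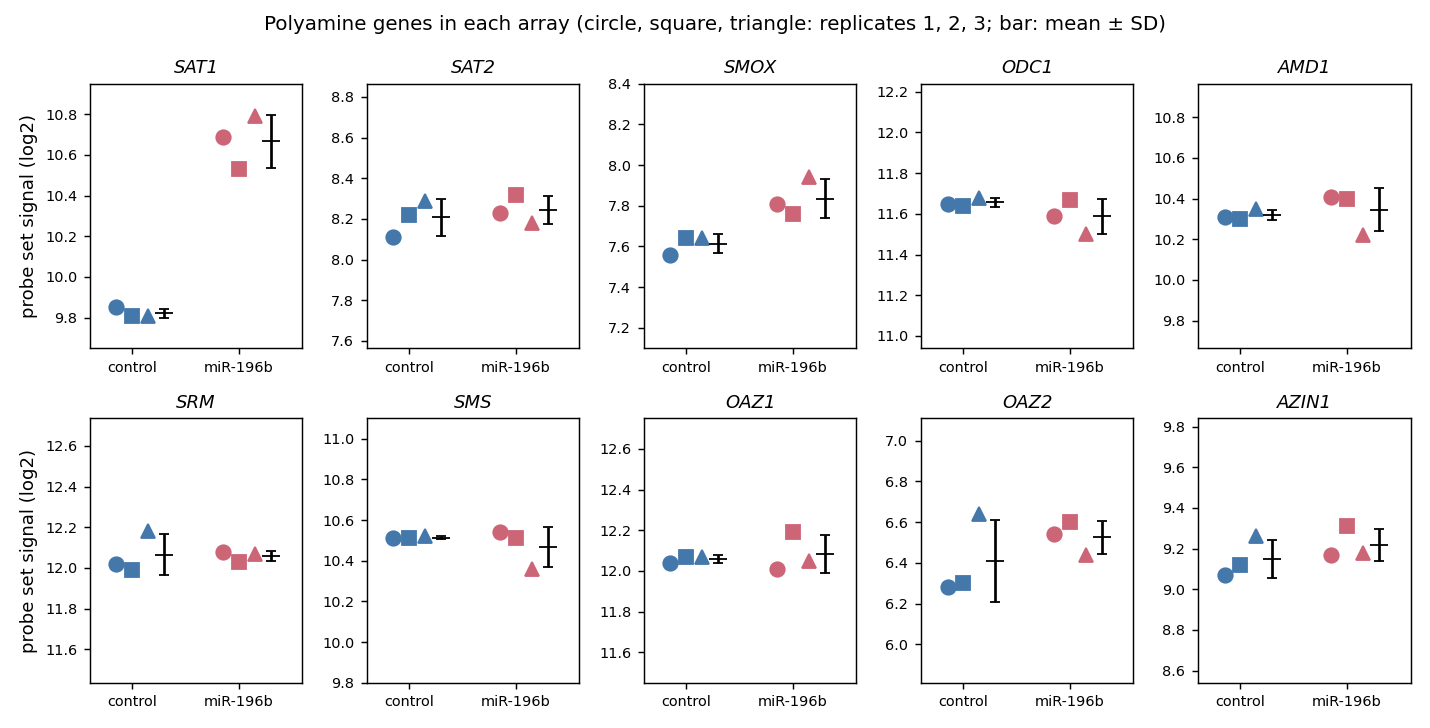
Level of the 10 polyamine genes (log2 probe set signal, y axis, each panel spanning the same range) in the control and labelled miR-196b arrays, with circles, squares and triangles for replicates 1, 2 and 3 and bars for the mean ± SD of 3 arrays. SAT1 and SMOX are the panels in which all labelled arrays lie above all control arrays, from 10.53 against 9.85 and from 7.76 against 7.64.

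The other genes of breakdown and interconversion moved less. SAT2 resembles SAT1 in sequence and is known to prefer thialysine as its substrate. Its level was 8.11, 8.22 and 8.29 in control and 8.23, 8.32 and 8.18 in the labelled arrays. These ranges overlapped, and the difference was 0.03 (95% interval -0.16 to 0.23; limma adjusted p = 0.908). No change was detectable from the SAT2 probe set. SHBG, a gene that spans SAT2 in the annotation, had a difference of 0.07 with an interval of -0.15 to 0.30. Its signal, at 3.94 to 4.23 over the arrays, did not pass the filter on dim probe sets. A probe set this dim cannot show whether the locus changed, so nothing is read from it.

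SMOX, the spermine oxidase, was at 7.56, 7.64 and 7.64 in control and at 7.81, 7.76 and 7.94 in the labelled arrays. All 3 labelled arrays lay above all 3 control arrays, with a gap of 0.11. The difference was 0.22 with an SE of 0.08 and an interval of 0.03 to 0.41, or 16.6% higher signal, which did not pass the test over all named probe sets (limma adjusted p = 0.452). The adjusted p of SMOX stayed above the threshold under each of the 14 alternatives tried, at 0.238 to 0.672, and its difference stayed between 0.17 and 0.26. Labelled replicate 3 had the highest SMOX and the highest SAT1 level of its group.

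SAT1 and SMOX were the 2 of 10 members whose groups did not overlap with the labelled arrays higher, where 10.0% of named probe sets did so. With the labelled arrays lower, 0 of 10 members were separated, against 7.18% of named probe sets. SAT1 was in the set because of its separation, which leaves 1 of 9 members for that comparison.

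The members that build the polyamines are ODC1, AMD1, SRM and SMS, and 0 of these 4 passed the test, against 0.0559% of all named probe sets. ODC1, which makes putrescine, was at 11.65, 11.64 and 11.68 in control and at 11.59, 11.67 and 11.50 in the labelled arrays. Labelled replicate 2 fell within the control range and the other two lay below it, and the difference was -0.07 with an interval of -0.24 to 0.11 (limma adjusted p = 0.792). AMD1, the S-adenosylmethionine decarboxylase, was at 10.31, 10.30 and 10.35 in control and at 10.41, 10.40 and 10.22 in the labelled arrays. Here 2 labelled arrays lay above the control arrays and 1 below them, with a difference of 0.02 and an interval of -0.16 to 0.21.

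SRM, the spermidine synthase, was at 12.02, 11.99 and 12.18 in control and at 12.08, 12.03 and 12.07 in the labelled arrays. The labelled values all fell inside the control range, and the difference was -0.01 with an interval of -0.19 to 0.18. SMS, the spermine synthase, was at 10.51, 10.51 and 10.52 in control and at 10.54, 10.51 and 10.36 in the labelled arrays. Its difference was -0.04 with an interval of -0.23 to 0.14, and labelled replicate 3 was the lowest of the 6 arrays. Over these 4 genes the intervals ran from 0.844-fold to 1.16-fold (limma adjusted p = 0.792 to 0.983), so changes in either direction inside those limits are not excluded. These limits are not the smallest change that the test could call, as SMOX at 1.17-fold did not pass. The annotation lists pseudogene copies of ODC1, AMD1, SRM, SMS and OAZ1, none with a named probe set, and the probes could share signal with them.

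Within the labelled group, replicate 3 had the highest SAT1 and SMOX levels and the lowest SAT2, OAZ2, ODC1, AMD1 and SMS levels. Against the control mean it stood 0.97 higher for SAT1 and 0.33 higher for SMOX, and at -0.16 for ODC1, -0.10 for AMD1 and -0.16 for SMS. For SAT2 and OAZ2 it stood at -0.03 and 0.03. Replicate 2 stood 0.71 higher for SAT1, 0.14 higher for SMOX and at 0.02 for ODC1. Over all 10 members replicate 3 was the lowest labelled array for these 5 genes and the highest for these 2. For SRM, also a synthesis gene, replicate 2 was the lowest, at 12.03 beside 12.07 in replicate 3. Replicate 3 was the lowest for 35.2% and the highest for 32.7% of all named probe sets. This ordering was noticed in the values of 3 arrays and was not tested.

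The antizymes OAZ1 and OAZ2 and the inhibitor AZIN1 set how much ODC1 protein remains. OAZ1, the main antizyme, was at 12.04, 12.07 and 12.07 in control and at 12.01, 12.19 and 12.05 in the labelled arrays. The labelled values fell on both sides of the control values, and the difference was 0.02 with an interval of -0.16 to 0.20. OAZ2, a second antizyme, was at 6.28, 6.30 and 6.64 in control and at 6.54, 6.60 and 6.44 in the labelled arrays. Control replicate 3 was the highest of the 6 arrays, and the difference was 0.12 with an interval of -0.15 to 0.38. Without that array the OAZ2 difference was 0.23 with an interval of 0.01 to 0.45 (limma adjusted p = 0.580), and without control replicate 1 it was 0.05. Its pooled SD of 0.154 was the largest among the members, whose median was 0.0757, against a median of 0.128 over all named probe sets.

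AZIN1, the antizyme inhibitor, was at 9.07, 9.12 and 9.26 in control and at 9.17, 9.31 and 9.18 in the labelled arrays. The groups overlapped, with a difference of 0.07 and an interval of -0.13 to 0.27 (limma adjusted p = 0.812). The intervals of the 3 genes together ran from 0.896-fold to 1.30-fold. An antizyme is made through a ribosomal frameshift that polyamines promote, and the RNA level gives no measure of that step.

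Of the 9 members other than SAT1, 6 were higher and 3 lower, with a median difference of 0.02 beside 0.01 over all named probe sets. By limma 0 of the 9 passed the adjusted threshold, against 0.0559% of all named probe sets, so this count says little about them. Unadjusted, 1 of the 9, SMOX, had a limma p below 0.05, where 9.87% of named probe sets did so. The adjusted count of 0 was found under each of the 14 alternatives. Direction was not stable for genes near no change: SAT2, AMD1, OAZ1, SRM and SMS changed sign when 1 array was left out, with values between -0.03 and 0.05 where they did.

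Further lists of related genes were chosen by role, also with earlier results of these data known. The lists covered the rest of polyamine breakdown and antizymes, arginine and ornithine supply, the methionine cycle, transport, hypusination, and transcription and splicing factors. Of their 64 genes 41 had a named probe set, 22 higher and 19 lower in the labelled arrays, with a median difference of 0.02. By limma 0 of the 41 passed over all named probe sets, in either direction, under the main setting and under each of the 14 alternatives. Only 0.0559% of named probe sets passed under the main setting, so a count of 0 says little about these genes or any 1 list. At an unadjusted p below 0.05 there were 3 higher and 1 lower, against 5.73% and 4.14% of named probe sets. Groups did not overlap for 6 with the labelled arrays higher and for 3 with them lower, against 10.0% and 7.18% of named probe sets.

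Among the other breakdown and antizyme genes, 3 of 6 were higher and 3 lower, and 0 passed. AZIN2, a second antizyme inhibitor, was at 5.92, 5.71 and 5.87 in control and at 6.37, 6.29 and 6.11 in the labelled arrays. All labelled arrays lay above all control arrays, and the difference was 0.43 with an SE of 0.10 and an interval of 0.19 to 0.66 (limma adjusted p = 0.338). PAOX, which oxidises the acetylated polyamines that SAT1 makes, was at 5.68, 5.70 and 5.71 in control and at 5.72, 5.66 and 5.34 in the labelled arrays. Labelled replicate 3 was the lowest of the 6 arrays, and the difference was -0.12 with an interval of -0.38 to 0.14. Without that array the PAOX difference was -0.0024 with an interval of -0.19 to 0.18. AGMAT, named for the breakdown of agmatine to putrescine, had a difference of -0.21 with an interval of -0.43 to 0.0038 and a signal among the dimmest 40% of probe sets.

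In the supply of arginine and ornithine, 10 of 14 genes were measured, 5 higher and 5 lower, and 0 passed. NOS3, a nitric oxide synthase that also consumes arginine, was at 5.44, 5.52 and 5.34 in control and at 5.64, 5.91 and 5.70 in the labelled arrays. The groups did not overlap, and the difference was 0.32 with an interval of 0.09 to 0.55 (limma adjusted p = 0.407). GATM, which starts creatine synthesis from arginine, was at 4.86, 5.06 and 4.92 in control and at 4.85, 4.59 and 4.52 in the labelled arrays. Its labelled arrays lay just below the control arrays, with a difference of -0.29 and an interval of -0.55 to -0.03 (limma adjusted p = 0.469). SLC25A15, the mitochondrial ornithine carrier, had a difference of -0.19 with an interval of -0.51 to 0.13.

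Of 15 genes of the methionine cycle and of methylthioadenosine salvage, which recycles the by-product of SRM and SMS, 11 were measured. Of these 4 were higher and 7 lower, with a median of -0.04, and 0 passed. CBS, which diverts homocysteine from the cycle, was at 5.07, 5.01 and 5.20 in control and at 4.46, 5.03 and 4.81 in the labelled arrays. Labelled replicate 2 fell within the control range, and the difference was -0.33 with an interval of -0.67 to 0.01 (limma adjusted p = 0.507). MTR, methionine synthase, was at 8.59, 8.66 and 8.69 in control and at 8.79, 8.79 and 8.76 in the labelled arrays. The groups did not overlap, and the difference was 0.13 with an interval of -0.03 to 0.29. APIP, an enzyme of the salvage steps, had -0.08 with an interval of -0.28 to 0.11.

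Transport was covered by 4 of 15 listed genes, all of the ATP13A family of pumps, some of which carry polyamines out of lysosomes. ATP13A2 had a difference of 0.05 with an interval of -0.14 to 0.23, ATP13A3 of 0.02 with -0.17 to 0.20, and ATP13A5 of 0.10 with -0.14 to 0.35. Hypusination, in which spermidine donates a side chain to the translation factor EIF5A, was covered by all 4 listed genes. EIF5A had a difference of -0.06 with an interval of -0.30 to 0.18, DHPS, the deoxyhypusine synthase, of 0.10 with -0.14 to 0.34, and DOHH, the hydroxylase, of 0.04 with -0.16 to 0.24. None of these 8 genes passed, and the groups overlapped for all of them.

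Of the 10 transcription and splicing factors 6 were measured, 4 higher and 2 lower, and 0 passed. PPARG, a nuclear receptor of lipid metabolism, was at 5.95, 6.07 and 6.07 in control and at 6.47, 6.33 and 6.48 in the labelled arrays. The groups did not overlap, and the difference was 0.39 with an SE of 0.08 and an interval of 0.20 to 0.58 (limma adjusted p = 0.310). MYC, a transcription factor for which ODC1 is a textbook target, was at 10.42, 10.42 and 10.47 in control and at 10.20, 10.26 and 10.39 in the labelled arrays. All labelled arrays lay below all control arrays, and the difference was -0.15 with an interval of -0.33 to 0.04 (limma adjusted p = 0.578). TRA2A, a splicing factor, had a difference of 0.14 with an interval of -0.02 to 0.30.

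**Figure D2:**
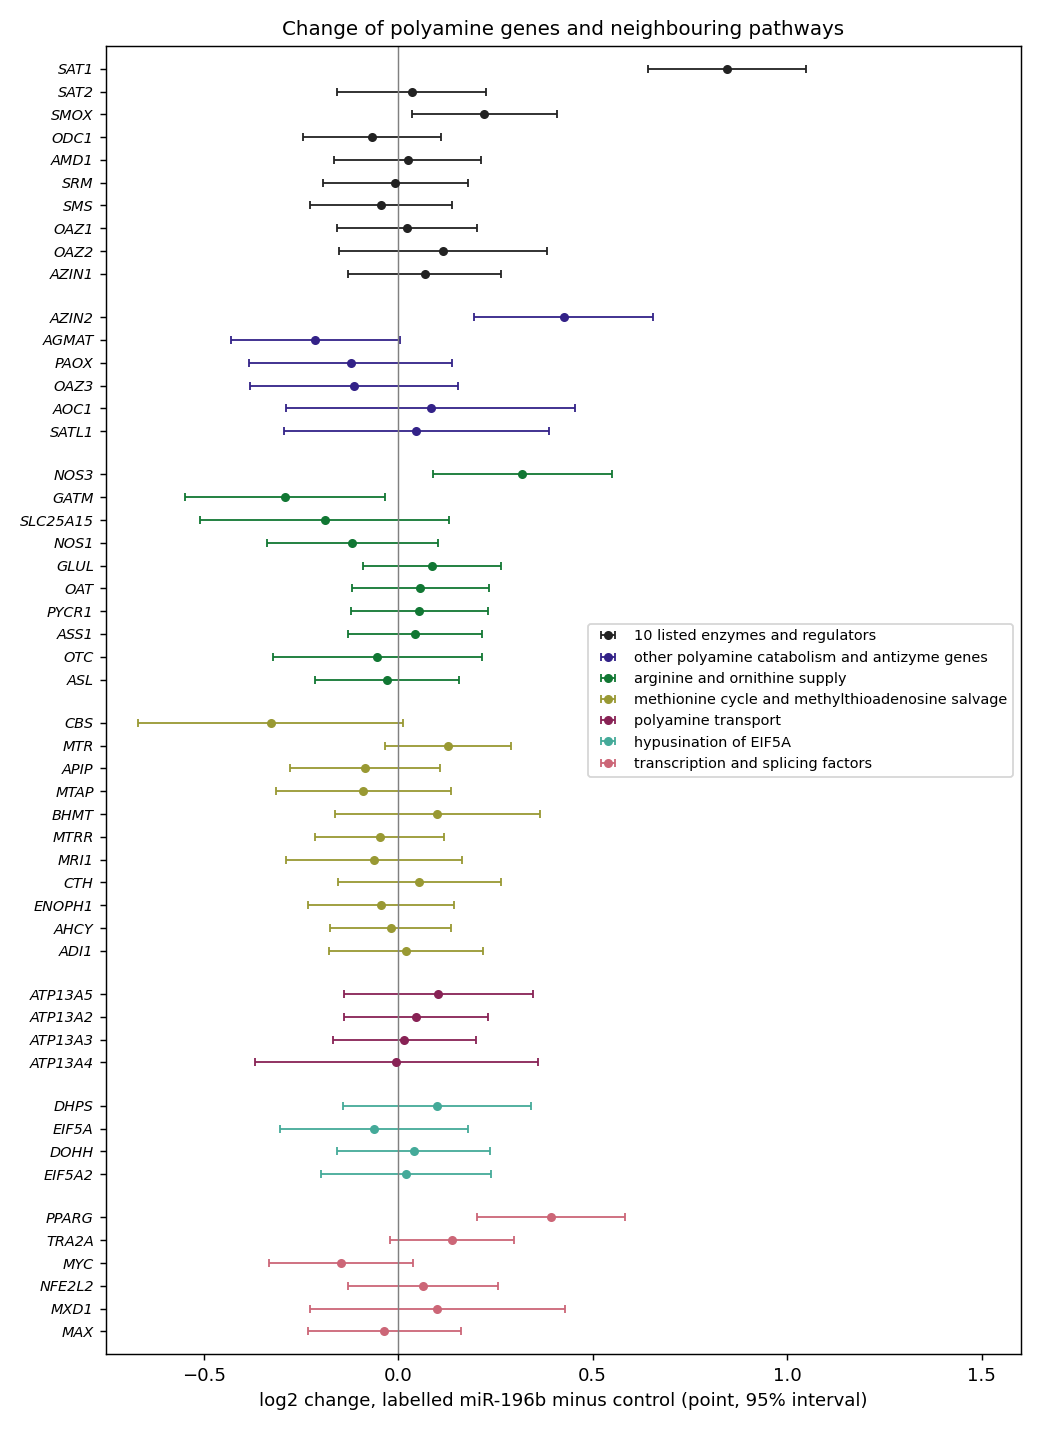
Difference between labelled miR-196b and control arrays (log2, x axis, point and 95% interval of the limma fit, 3 arrays a group) for the 10 polyamine genes and the 41 measured genes of 6 related lists, coloured by list. SAT1 stands at 0.85 with an interval from 0.64, and the other 50 genes lie between -0.33 and 0.43.

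The upstream sequences of SAT1 and of 2 synthesis genes that did not pass the test are shown to set their start regions side by side. RefSeq (GRCh38.p14) gave sequence for 8 of the 10 members, at 12 start sites. Each sequence below is the 250 bases before the annotated start, 5′ to 3′ on the gene's strand. Capitals mark CCAAT in SAT1, the GC box GGGCGG in ODC1 and the E-box CACGTG in SRM, each searched on both strands.
SAT1, chrX:23782923-23783172, plus strand: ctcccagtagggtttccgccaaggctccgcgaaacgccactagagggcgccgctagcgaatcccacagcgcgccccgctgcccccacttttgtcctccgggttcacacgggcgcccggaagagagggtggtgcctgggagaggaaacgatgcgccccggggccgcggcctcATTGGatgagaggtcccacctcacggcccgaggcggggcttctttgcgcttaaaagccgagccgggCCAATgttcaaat
ODC1, chr2:10448328-10448577, minus strand: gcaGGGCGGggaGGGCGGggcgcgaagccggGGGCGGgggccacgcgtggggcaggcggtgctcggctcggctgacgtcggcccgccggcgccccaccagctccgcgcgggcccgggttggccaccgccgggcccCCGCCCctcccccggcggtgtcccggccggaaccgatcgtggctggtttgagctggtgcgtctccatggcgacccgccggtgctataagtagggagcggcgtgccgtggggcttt
SRM, chr1:11060019-11060268, minus strand: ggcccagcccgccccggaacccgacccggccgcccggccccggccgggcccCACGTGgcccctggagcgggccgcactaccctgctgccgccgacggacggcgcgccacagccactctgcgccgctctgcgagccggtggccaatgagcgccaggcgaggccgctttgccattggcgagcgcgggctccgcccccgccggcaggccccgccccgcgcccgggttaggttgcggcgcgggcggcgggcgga
SAT1 held 2 CCAAT matches, 1 on each strand, and no E-box or GC box. ODC1 held 4 GC boxes at this start, and SRM held 1 E-box, 2 CCAAT matches and 6 GC boxes. At a further annotated ODC1 start the window held 1 E-box and 4 GC boxes. GC content was 66.4% for SAT1, 78.8% for ODC1 and 82.0% for SRM. Over 35116 promoters of the same length, 32.0% held CCAAT, 42.6% the GC box and 6.34% the E-box. A further motif, TGACNNNGC, the core that NRF2 binds, was in 10.9% of them, in SAT2 among the members and in none of these 3 windows. These matches are descriptions of letters and show no binding.

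SAT1 lies on the X chromosome, and its nearest coding genes with a named probe set were read in the order of the annotation. On one side ACOT9, a mitochondrial thioesterase, had a difference of -0.05 with an interval of -0.24 to 0.14, and PRDX4, a peroxiredoxin, of 0.02 with -0.14 to 0.19. On the other side APOO, a mitochondrial membrane protein, was at 7.32, 7.43 and 7.51 in control and at 7.60, 7.60 and 7.60 in the labelled arrays. Its groups did not overlap, and the difference was 0.18 with an interval of 0.0009 to 0.36 (limma adjusted p = 0.504). CXorf58 had 0.01 with an interval of -0.28 to 0.31 and KLHL15 0.02 with -0.25 to 0.29. The CXorf58 signal was among the dimmest 40% of probe sets. PTCHD1, farther out, had 2 probe sets, both among the dimmest 40%. At one the groups did not overlap, with a difference of 0.31 and an interval of 0.12 to 0.51 (limma adjusted p = 0.360). At the other they overlapped, with 0.41 and an interval of -0.07 to 0.90 (limma adjusted p = 0.548). None of these 6 genes passed, against 0.0559% of all named probe sets. SMS is on the same chromosome, and its values are given above.

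**Figure D3:**
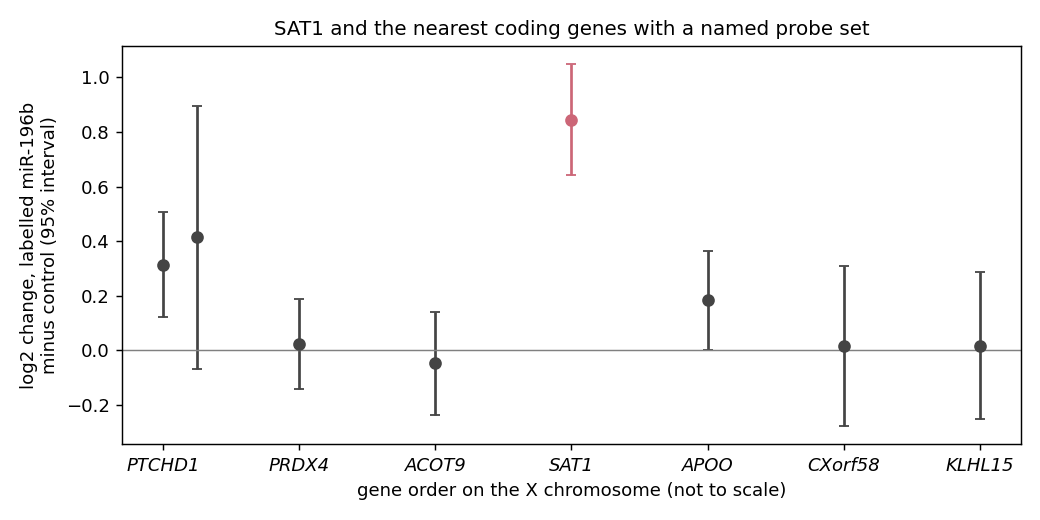
Difference between labelled miR-196b and control arrays (log2, y axis, point and 95% interval of the limma fit) for SAT1 and the 3 nearest coding genes on each side that had a named probe set, in chromosome order and not to scale, with 2 points for PTCHD1. SAT1 is at 0.85, and the adjacent ACOT9 and APOO are at -0.05 and 0.18.

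The 5 probe sets of other genes nearest to SAT1 over the 6 arrays were found by the root mean square difference after each was centred on its own mean. They were CALCRL, a receptor gene of the calcitonin family (0.107), PELI2, a ubiquitin ligase gene (0.123), CNTNAP3, a cell adhesion gene (0.127), NFIB, a transcription factor gene (0.133), and TMT1A, a methyltransferase gene (0.137). The median of this distance over all other named probe sets was 0.443. CALCRL was at 3.82, 4.05 and 4.04 in control and at 4.69, 4.55 and 4.92 in the labelled arrays, and PELI2 at 4.52, 4.55 and 4.64 and at 5.19, 5.11 and 5.62. In both, as in SAT1, labelled replicate 3 was the highest and replicate 2 the lowest of the labelled group. The distance takes in every array, so this shared order is partly set by the choice and nothing is read from it.

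NFIB was at 6.95, 7.00 and 7.03 in control and at 7.63, 7.71 and 7.66 in the labelled arrays, and TMT1A at 5.24, 5.28 and 5.56 and at 6.13, 6.13 and 6.13. CNTNAP3 was at 7.00, 6.92 and 6.73 in control and at 7.51, 7.50 and 7.62 in the labelled arrays, and has a near-identical copy whose signal its probes could share. These genes were picked for sharing the group difference of SAT1, so their differences of 0.66 to 0.77 describe the choice. None of the 9 other polyamine genes was among them, which follows from the measure, as their differences reached at most 0.22 (SMOX).

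**Figure D4:**
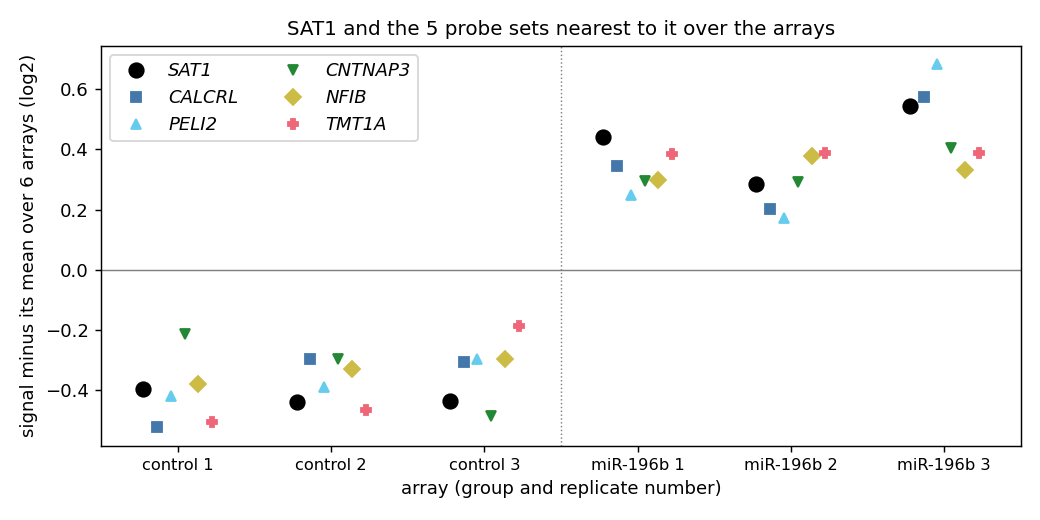
Signal of SAT1 and of the 5 probe sets nearest to it, each minus its own mean over the 6 arrays (log2, y axis), by array (x axis). All 6 lie below 0 in the 3 control arrays and above 0 in the 3 labelled arrays, and the distance from SAT1 ranged from 0.107 for CALCRL to 0.137 for TMT1A.

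The annotation ties the SAT1 probe set to a RefSeq entry for a non-coding SAT1 transcript variant. The SAT1 gene is known to give such a variant, with an additional exon, beside the coding messenger RNA. Probe positions were not examined, so the share of each form in the SAT1 signal was not measured.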

How the data were processed

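The deposited values are log2 signals, 1 per probe set and array, for 6 arrays. Per the submitters' processing notes the tools were RMA and Partek 6.6, whose order and options they leave out. RMA's quantile step removes differences in overall level between arrays, and its output is log2, which set the log base assumed here. The genome build is not given in the sources used here.

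Probe sets took their gene symbols from the platform annotation (16098 of 53617 probe sets with 1 symbol, 0 with several, 37519 unnamed here). The deposited values were fitted in R 4.3.3 with limma 3.58.1 (lmFit and eBayes, group alone), with no filter, and p-values were adjusted by Benjamini-Hochberg over the 16098 named probe sets at 0.05. Intervals are 95% intervals of that fit. All 10 members also passed the filter on dim probe sets used as an alternative. An exact test of 3 against 3 arrays cannot go below p = 0.1, and precision is limited by having 6 arrays.

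The members and lists were chosen with earlier results of these data known. The text names all members, the 3 probe sets with the smallest p in each related list, the 5 probe sets nearest to SAT1 and the MIR196B and MIR196A2 probe sets. MIR196A1 was added after its values were seen. SHBG and the neighbours of SAT1 were added by position, and marker genes were named from their fixed lists. Alternatives were a filter on the dimmest 40%, a trended robust prior, median centring, array weights, a quantile normalization run again, a replicate block, each array left out, all probe sets, and gene means. No slide or scan batch was tested.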

Additional observations from a re-analysis of the deposited data

How the results depend on the processing

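SAT1 kept its direction and stayed within 1 SD of its value under all 14 alternatives (0.79 to 0.92, log2). The count of members called fell from 1 to 0 with all probe sets tested, with a repeated quantile normalization and with the replicate block, and was 0 with any 1 array left out. Over all named probe sets the count of calls was 9, against 2 with all probe sets tested, 1 with the replicate block, 91 with a trended robust prior, 22 without the dimmest 40%, and 2 to 3 with 1 array left out. The count of calls was 0 for the other 9 members and for the related lists throughout. The labels do not say whether replicate numbers pair the cultures. Deviations from the group means of same-numbered arrays correlated at 0.0305, 0.0369 and 0.0085 across probe sets. Those of differently numbered arrays correlated at -0.0521 to 0.0198. Control replicate 3 correlated more with labelled replicate 2 (0.019) than with labelled replicate 3. Correlations this small, from 3 arrays a group, cannot decide whether the cultures were paired. Some genes near no change turned sign with 1 array left out. Over those 6 fits AMD1 ran from -0.0077 to 0.085, SAT2 from -0.013 to 0.077, OAZ1 from -0.030 to 0.058, SRM from -0.042 to 0.051 and SMS from -0.077 to 0.013. ATP13A3 ran from -0.025 to 0.053, ATP13A5 from -0.0033 to 0.17, DOHH from -0.029 to 0.075, EIF5A from -0.14 to 0.034 and MIR196B from -0.00073 to 0.14. Other genes kept their sign but moved by over 1.5 times: OAZ2 ran from 0.053 to 0.23, AZIN1 from 0.023 to 0.12, ODC1 from -0.11 to -0.023, PAOX from -0.20 to -0.0024, CBS from -0.46 to -0.18, SLC25A15 from -0.32 to -0.074, APIP from -0.13 to -0.020, DHPS from 0.043 to 0.20 and ATP13A2 from 0.0094 to 0.086. ATP13A3 was at -0.0018 with a repeated quantile normalization. The cause was not tested for any of these.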
